A study of Homo sapiens with 6 samples.

Results

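The Schwann cell lineage genes PMP22, EGR2, POU3F1, NGFR, CDH19, MBP, GFAP, L1CAM and SOX2 carried 38 of the 30784 H3K27ac peaks of the human clear cell sarcoma (CCS) line SU-CCS-1. MBP held 22 of them, POU3F1 lay next to a very wide distal peak, and PMP22, CDH19 and SOX2 had 1 peak each, on or beside their start sites. EGR2 had a narrow peak on its start site. The only NGFR peak lay mostly past the 3′ end of the gene, and no peak touched GFAP or L1CAM. The 9 genes were members by name, among 20033 protein-coding genes of GENCODE. A peak was assigned to a member when it overlapped the gene body or lay within 50 kb of it, and was called a promoter peak when it lay within 3 kb of any annotated transcript start of the gene.

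SU-CCS-1 is an established cell line from a clear cell sarcoma, a soft tissue tumor, and carries the EWSR1::ATF1 fusion (EA1) in which part of EWSR1 is joined to the transcription factor ATF1. Chromatin immunoprecipitation and sequencing (ChIP-seq) was performed with an antibody to H3K27ac, a histone acetylation found at promoters and enhancers in use, in 3 samples, and 3 input samples of chromatin without immunoprecipitation served as background. All 6 samples were of this line, no treatment is given for either group, and no cells without the fusion were among them. The deposited data are 1 merged list of peak positions with no height, score or depth, so that widths and positions have no replicate error and no difference between peaks could be tested.

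Schwann cells arise from the neural crest by way of Schwann cell precursors, which become immature Schwann cells and then either wrap axons in myelin or remain unmyelinated. SOX2 is a factor of the immature state that holds back myelination, POU3F1 (OCT6) acts in the promyelinating cell, and EGR2 (KROX20) then drives the genes of compact myelin, PMP22 and MBP among them. CDH19 is a cadherin of Schwann cell precursors, while NGFR (the p75 neurotrophin receptor), the adhesion molecule L1CAM and the intermediate filament GFAP are found on immature and unmyelinating Schwann cells. Myelin and pigment cells share the neural crest and the regulator SOX10, and CCS is known for melanocytic markers.

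Start-site sequence differed widely among the members, which is why the stretches before 6 start sites are shown. The sequences are from RefSeq on GRCh38, read 5′ to 3′ on the strand of the gene and ending at or shortly before the start site, with exon bases left out. Capitals mark matches, on either strand, to 8 motifs that were searched: ACAAAG (SOX type), ATGCAAAT (the octamer of POU factors), GNGNGGGNG (EGR type), GGAATG (TEAD type), CACGTG (an E-box), TGACGTCA and TGANNTCA (ATF/CREB type, the second including the first) and TGAGTCA (AP1 type). The first 2 stretches lay wholly in wide H3K27ac peaks and hold EGR type matches.
POU3F1, chr1:38046794-38047043, minus strand: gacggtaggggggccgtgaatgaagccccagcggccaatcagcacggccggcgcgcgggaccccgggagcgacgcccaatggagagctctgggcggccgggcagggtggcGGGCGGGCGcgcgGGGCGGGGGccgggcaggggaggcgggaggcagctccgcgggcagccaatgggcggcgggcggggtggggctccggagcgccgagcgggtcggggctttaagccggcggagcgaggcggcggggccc
SOX2, chr3:181711675-181711924, plus strand: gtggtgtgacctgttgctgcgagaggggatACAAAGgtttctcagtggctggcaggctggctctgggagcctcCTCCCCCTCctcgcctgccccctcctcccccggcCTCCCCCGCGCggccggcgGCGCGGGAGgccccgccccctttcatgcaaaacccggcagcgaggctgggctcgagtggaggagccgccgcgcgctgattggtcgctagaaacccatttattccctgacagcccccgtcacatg
The next stretch lay in the narrow EGR2 peak and holds the octamer that POU factors such as POU3F1 can bind.
EGR2, chr10:62816374-62816616, minus strand: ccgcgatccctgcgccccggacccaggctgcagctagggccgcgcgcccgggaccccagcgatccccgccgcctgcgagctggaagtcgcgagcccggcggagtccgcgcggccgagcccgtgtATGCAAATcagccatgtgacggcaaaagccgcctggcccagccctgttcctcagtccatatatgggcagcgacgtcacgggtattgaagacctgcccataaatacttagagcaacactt
The PMP22 stretch belongs to the canonical start site, which lay upstream of the PMP22 peak and outside it. The CDH19 stretch is AT-rich and lay inside a peak, and both hold an ACAAAG match.
PMP22, chr17:15265327-15265576, minus strand: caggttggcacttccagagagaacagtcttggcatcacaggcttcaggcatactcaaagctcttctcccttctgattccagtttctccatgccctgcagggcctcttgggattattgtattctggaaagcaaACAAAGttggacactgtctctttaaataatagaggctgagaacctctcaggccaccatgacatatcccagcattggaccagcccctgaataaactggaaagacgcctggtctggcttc
CDH19, chr18:66604139-66604340, minus strand: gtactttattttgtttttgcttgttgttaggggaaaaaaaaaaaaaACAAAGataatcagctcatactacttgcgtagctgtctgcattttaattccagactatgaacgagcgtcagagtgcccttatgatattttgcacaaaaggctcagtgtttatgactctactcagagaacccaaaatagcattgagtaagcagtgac
The MBP stretch, before the upstream start site of MBP, held none of the motifs and lay in the widest MBP peak.
MBP, chr18:77132845-77133033, minus strand: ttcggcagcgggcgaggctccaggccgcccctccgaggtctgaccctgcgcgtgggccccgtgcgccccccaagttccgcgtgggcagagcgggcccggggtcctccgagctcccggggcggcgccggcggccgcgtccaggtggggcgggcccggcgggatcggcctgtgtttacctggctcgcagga

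Of the 9 members, 6 (66.7%) had a promoter peak, beside 63.4% of all protein-coding genes. These were PMP22, EGR2, POU3F1, CDH19, MBP and SOX2. The canonical start site itself lay in a peak at 5 members (55.6%), beside 53.5% of all coding genes, PMP22 being the member with a promoter peak whose canonical start was not covered. A peak touched the gene body at 7 members (77.8%), NGFR only at its very end, beside 64.6%. All 9 members had a peak in the body or within 50 kb, as did 83.1% of coding genes. These shares lay close to those of all coding genes, whereas the number and width of the peaks varied widely from member to member.

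**Figure D1:**
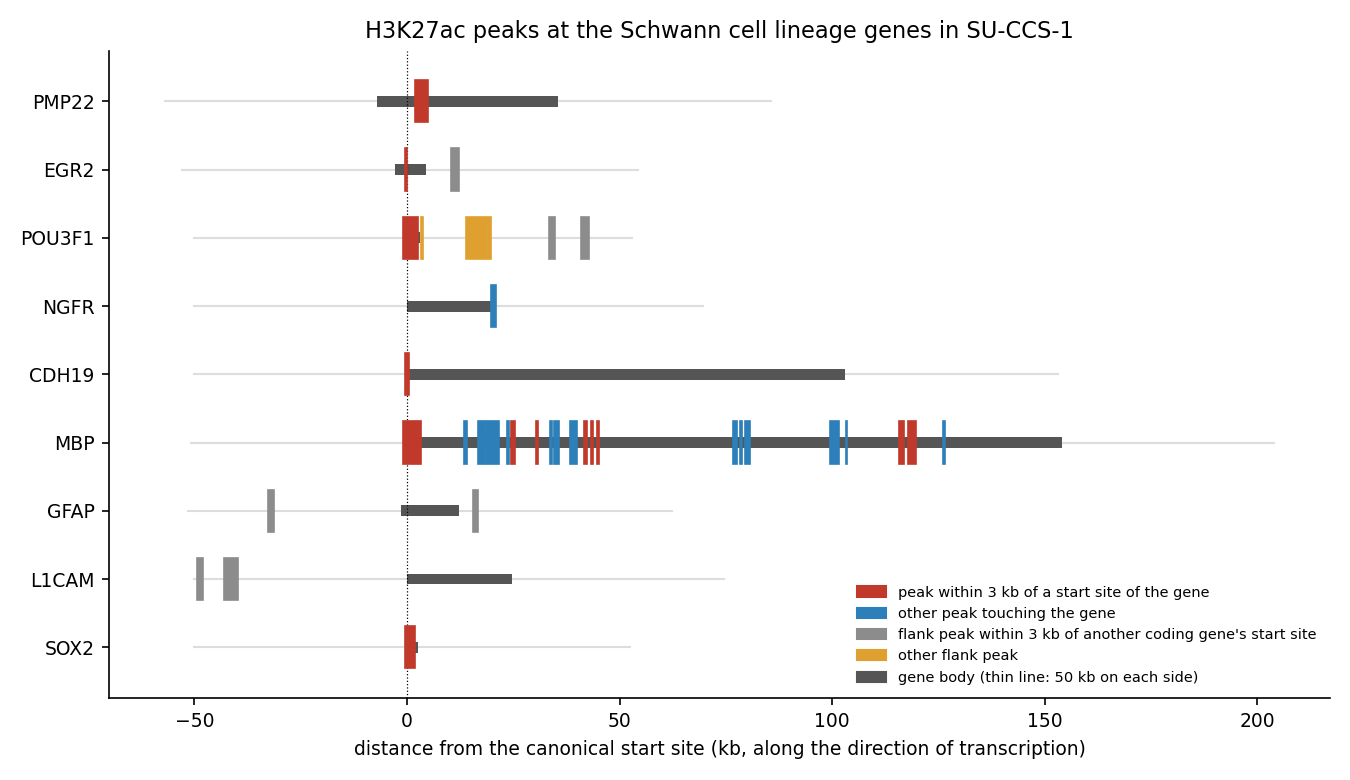
Peaks (boxes) at the 9 members, with the distance from the canonical start site in kb along the direction of transcription on the x axis and 1 gene per row; dark bars are gene bodies and thin lines the 50 kb on each side. MBP holds 22 peaks, POU3F1 6 and every other member 1 or 2, and those of GFAP and L1CAM all lie at start sites of other genes.

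Of the 38 peaks, 28 touched a member's body and 10 lay in the flanks. In the flanks, 7 of the 10 reached the start site of another coding gene, so that they cannot be assigned to the member by position. The median width was 1195 bases, beside 1060 for all peaks. Among peaks that reached no start site of any gene, the 13 of the members had a median width of 710 bases, beside 770 for all such peaks. The 13 promoter peaks of the members themselves had a median of 1050 bases, beside 1270 for promoter peaks of all genes. MBP alone held 8 of these promoter peaks and most of the 13 distal ones, so that both medians mainly describe MBP. The promoter peaks of EGR2, CDH19, SOX2, PMP22 and POU3F1 measured 530, 1050, 2200, 3150 and 3660 bases. The median member had 22.1 bases in peaks per kb of window, the window being the gene with its flanks, beside 21.4 over all coding genes.

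Of the regulators SOX2, POU3F1 and EGR2, POU3F1 was the most densely marked. The gene is a single exon of 2.965 kb at chr1:38043829-38046793 (minus strand), and a peak of 3660 bases at chr1:38044111-38047770 covered its start site and most of the gene. This peak was wider than 94.2% of promoter peaks and covered 905 bases per kb of the gene (99.0th percentile of coding genes). A distal peak of 4920 bases at chr1:38027931-38032850 was centered 16.4 kb downstream of the start site and was wider than 98.7% of distal peaks. It reached no annotated start site. A peak of 710 bases lay 300 bases beyond it, and a peak of 410 bases lay 3.36 kb downstream of the start site, just past the gene. The last 2 peaks of the window, of 1890 and 1360 bases, lay at the promoters of FHL3 and UTP11. With 126 bases in peaks per kb of window, these 2 peaks included, POU3F1 stood at the 92.7th percentile of coding genes. The nearest coding start was that of POU3F1 for the wide distal peak (16.4 kb) and of UTP11 for the peak of 710 bases (14.5 kb). Which gene either peak serves was not tested.

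SOX2, also a gene of a single exon (chr3:181711925-181714436, plus strand), had 1 peak of 2200 bases at chr3:181711501-181713700 that covered its start site. The peak was wider than 81.0% of promoter peaks and took up 707 bases per kb of the gene (98.4th percentile). It also lay within the promoter window of SOX2-OT, the long noncoding gene that surrounds SOX2. No other peak lay within 721.4 kb on one side and 650.6 kb on the other, and only 0.442% of all peaks were farther from their nearest neighbour. The window of SOX2 held 21.5 bases in peaks per kb (50.1st percentile), a value that follows the flank chosen, with 41.9 (67.3rd percentile) for flanks of 25 kb and 10.9 (31.5th) for 100 kb.

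EGR2 (chr10:62811996-62819167, minus strand) had a single peak of its own, of 530 bases, at chr10:62816281-62816810. It covered the canonical start site and 1 other of the 6 annotated start sites, and only 11.6% of promoter peaks were narrower. The start sites 1.85 and 2.36 kb upstream of the peak were not covered, nor were those 6 and 252 bases downstream of it. The octamer in the printed sequence lay in this peak, 119 bases before the canonical start site. Octamers were found in 1.77% of all promoters of 300 bases and in 1.91% of peaks of like width. The other peak of the window, of 2010 bases, lay 10.3 kb from the canonical start site at the promoter of ADO, which encodes a thiol oxygenase. EGR2 had 23.7 bases in peaks per kb of window (52.6th percentile), but 2010 of the 2540 bases in these peaks were those of the ADO promoter peak.

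**Figure D2:**
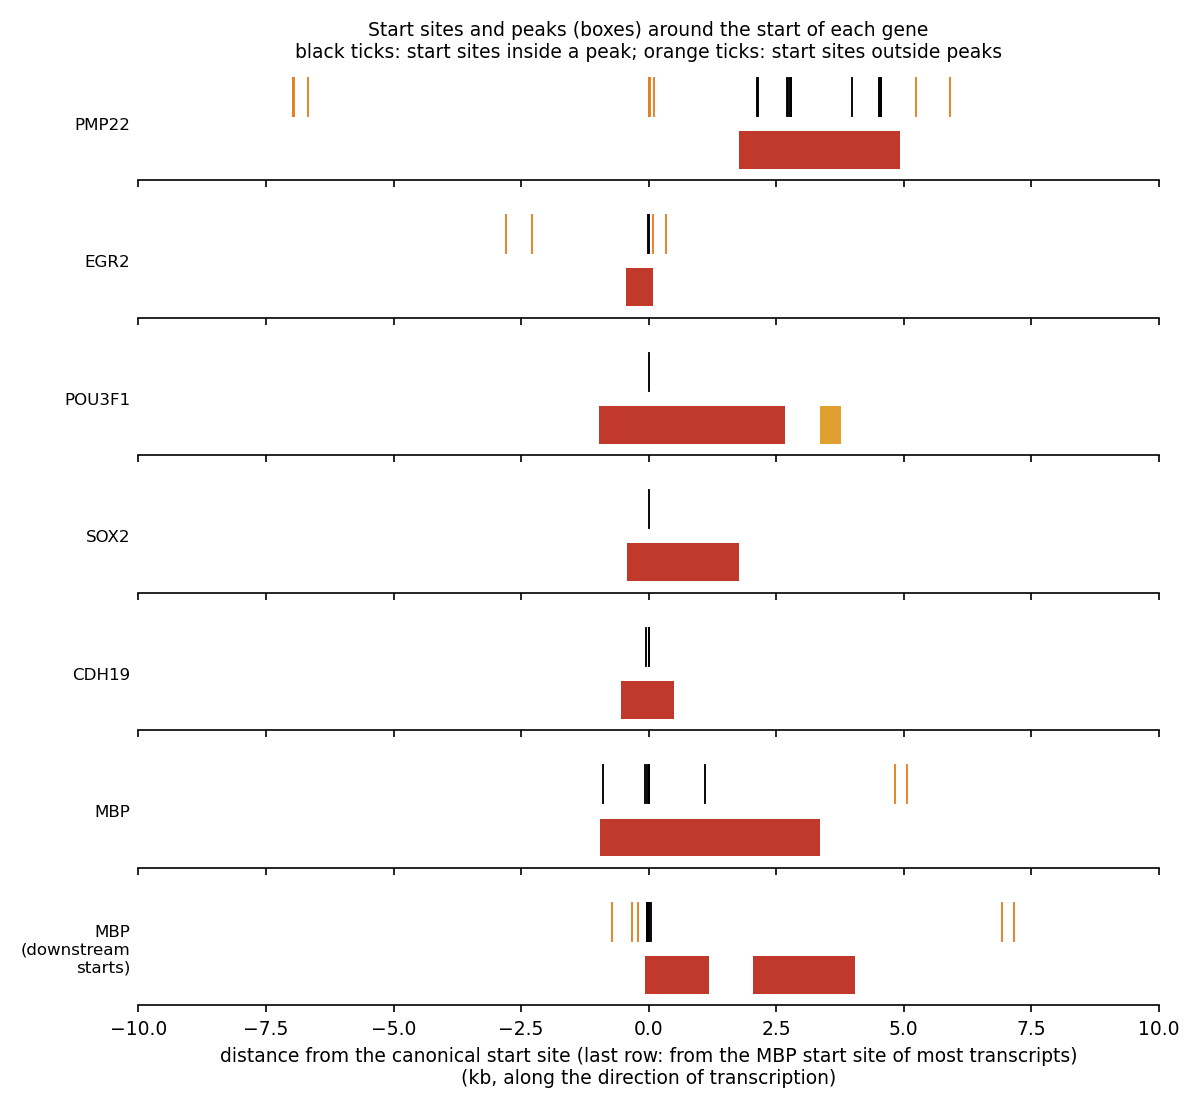
Annotated start sites (ticks) and peaks (boxes) within 10 kb of the start of the 6 members with a promoter peak, in kb along the direction of transcription; black ticks lie in a peak and orange ticks do not. The PMP22 peak begins 1.78 kb downstream of the canonical start, whereas the peaks of the other genes cover it; the last row centers on the MBP start site with most transcripts, 13.

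Of CDH19, NGFR and L1CAM, only CDH19 had a promoter peak. CDH19 (chr18:66501083-66604138, minus strand) spans 103.1 kb, and its 1 peak, of 1050 bases at chr18:66603591-66604640, covered 3 of its 4 start sites. No other peak lay within 852.4 kb downstream or 120.1 kb upstream, which left 5.17 bases in peaks per kb of window (22.7th percentile). The RefSeq promoter of 300 bases, 50 of them after the start site, held 5 CpG and was 39.3% GC, lower than all but 10.2% of RefSeq promoters. Promoters in a peak had a median of 28 CpG and 67.0% GC, and those outside peaks 5 CpG and 50.7% GC. CDH19 thus carried a peak on a promoter with the CpG number of promoters outside peaks. The peak held 3 ACAAAG matches, and 45.3% of peaks of like width held at least 1.

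NGFR (chr17:49495293-49515008, plus strand) had no promoter peak. Its 1 peak, of 1310 bases at chr17:49514971-49516280, lay mostly past the 3′ end of the gene and covered only 1.93 bases per kb of the gene body. It lay 19.7 kb from the canonical start site and 17.6 kb from the nearest of the 3 start sites, and was wider than 73.4% of distal peaks. No start site of another gene lay within 3 kb of it.

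L1CAM (chrX:153861514-153886173, minus strand) had no peak in its 24.66 kb. The nearest peaks, of 3180 and 1480 bases, lay 39.8 and 48.0 kb upstream of its canonical start site. Both reached start sites of ARHGAP4, and the second that of NAA10 too. GFAP (chr17:44903159-44916937, minus strand) likewise had none at any of its 31 start sites. Its nearest peaks were those of 1130 bases at the CCDC103 and EFTUD2 promoters, 15.5 kb from the canonical start site, and of 1340 bases at the KIF18B promoter, 31.3 kb away. A gene body without a peak was found at 35.4% of coding genes. Such a gene lay below the calling threshold or in a removed region, and absence of the mark was not shown.

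The 2 myelin genes, PMP22 and MBP, both use alternative start sites, and they differed in which of these carried a peak. PMP22 (chr17:15229773-15272292, minus strand), which encodes a membrane protein of compact myelin, has 24 annotated start sites. Its 1 peak at chr17:15260401-15263550, 3150 bases wide and wider than 91.8% of promoter peaks, covered 13 of them. These lay between 15260761 and 15263204, where RefSeq places 2 of its 3 start sites. The canonical start site at 15265326, the upstream promoter known for its use in Schwann cells, lay 1.78 kb outside the peak. Start sites farther upstream, from 15272007 to 15272292, lay 8.46 to 8.74 kb outside it. The 3 RefSeq promoters of 300 bases differed in sequence. The uncovered one held 2 CpG, and the covered ones held 24 and 36. The peak held no ACAAAG, which 85.0% of peaks of like width held, whereas the uncovered promoter, printed above, held 1.

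MBP encodes myelin basic protein and, from its upstream start sites, the longer Golli proteins. It spans 154.9 kb (chr18:76978827-77133683, minus strand), and all 22 of its peaks touched the gene, the widest reaching just past its 5′ end. The 3′ end of the gene, beyond chr18:77006171-77006700, held none. Only 31 coding genes, MBP included, had at least as many peaks in their body. The peaks summed to 25.3 kb, or 163 bases per kb of the gene (88.6th percentile), and 99.3 bases per kb of window (89.1st). Most were narrow, with a median of 670 bases and a range of 420 to 4310, and 12 of the 22 were narrower than the median distal peak of 770 bases. In number of peaks MBP was more extreme (99.8th percentile) than in density. The part of gene length and of peak width in this difference was not tested.

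The widest MBP peak, of 4310 bases at chr18:77129431-77133740, covered 6 start sites of the upstream (Golli) group, the canonical one among them, and was wider than 96.1% of promoter peaks. The downstream start sites, from which the classic myelin isoforms are transcribed, were covered as well. A peak of 1260 bases at chr18:77015871-77017130 took in 10 start sites, including the one with 13 transcripts at 77017055. A second peak, of 2000 bases, lay 870 bases downstream of it. A further 3 start sites, 44.9 kb into the gene, were inside a peak of 630 bases at chr18:77087571-77088200. In all, 19 of the 30 start sites lay in a peak, and 8 of the 22 peaks were promoter peaks, with a summed width of 10730 bases that exceeded that of 98.2% of coding genes with a promoter peak. This sum was not scaled to the number of start sites. Apart from the peaks of 4310, 1260 and 630 bases, the promoter peaks lay near a start site without covering one.

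**Figure D3:**
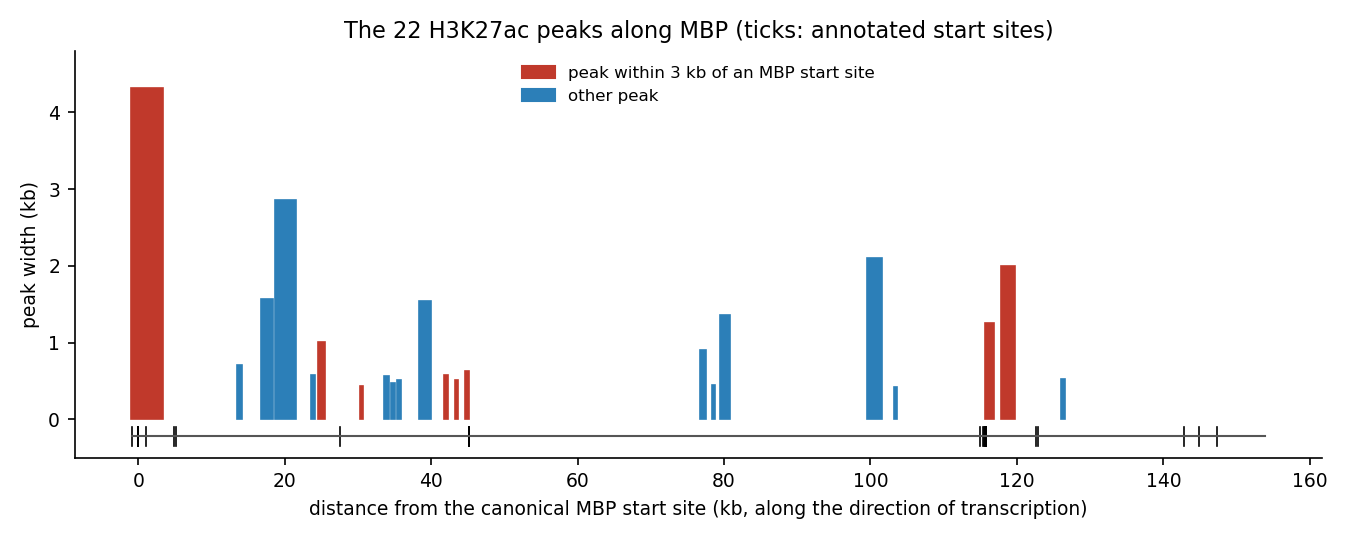
Width (kb, y axis) and position (distance from the canonical start site in kb, x axis) of the 22 MBP peaks, with ticks for the annotated start sites. The widest peak, 4.31 kb, covers the upstream start sites, 14 peaks lie in the 46.17 kb at its 5′ end, and a stretch of 31.46 kb in its middle has none.

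Neighbouring peaks were joined at the stitching distance that the study used, which at the members closed gaps of up to 12.07 kb and left gaps of 13.22 kb and more open. This gave 17049 regions over the genome, of which 9 touched a member gene or its promoter window. The largest was the MBP region at chr18:77087571-77133740, with 14 peaks over 46.17 kb and 16.28 kb in peaks, ranked 227 of all regions by summed width (top 1.33%). The classic start sites lay in a separate region of 5 peaks and 6.31 kb, ranked 1298, and a region of 3 peaks and 2.71 kb between them ranked 4246. At POU3F1, 4 peaks over 20.85 kb joined the promoter to the wide distal peak, with 9.7 kb in peaks (rank 616, top 3.61%). PMP22 ranked 3467, EGR2 4609, SOX2 5543, NGFR 10082 and CDH19 11780. The EGR2 region included the ADO promoter peak, and when peaks within 5 kb were joined it was the EGR2 peak of 530 bases alone, which moved from the top 27% to the top 88.9%. MBP and POU3F1 were thus the members with large marked domains. At that distance the distal peak no longer joined POU3F1 either, and the POU3F1 rank moved from the top 3.61% to the top 10.4%.

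**Figure D4:**
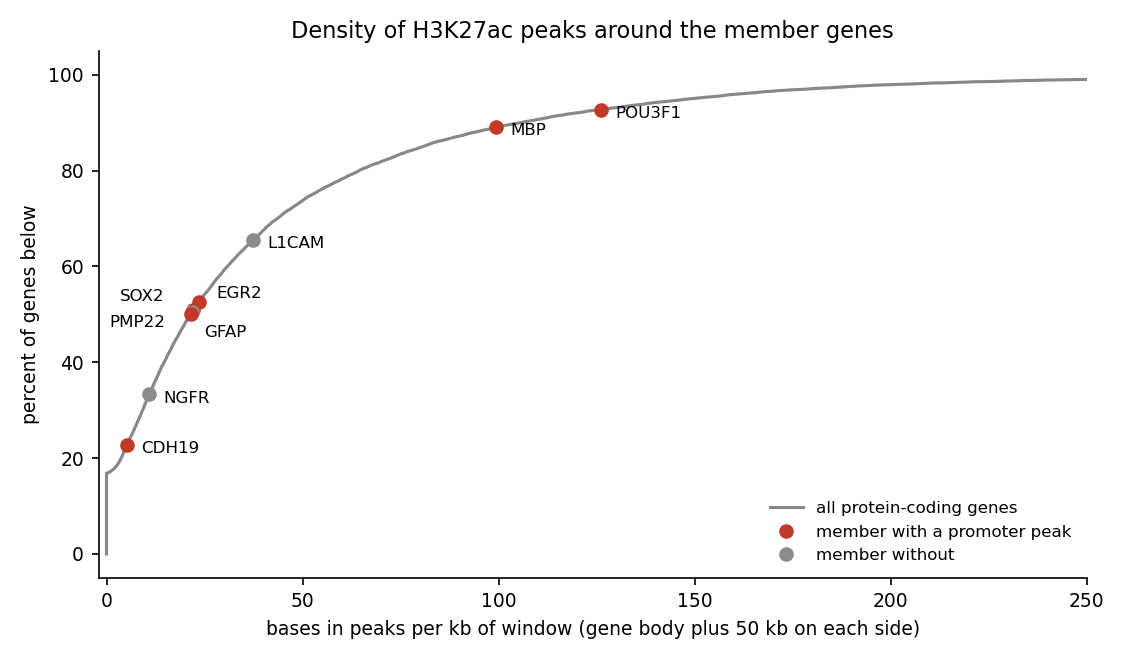
Bases in peaks per kb of window (x axis) against the percent of the 20033 coding genes with a lower value (y axis); the line is all coding genes and the points are the members. POU3F1 (126) and MBP (99.3) lie far out, L1CAM at 37.4, and the others between 5.17 and 23.7. The values of L1CAM and GFAP (21.7) come only from peaks at start sites of other genes, and most of that of EGR2 from the ADO promoter peak. The x axis ends at 250.

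Peaks at PMP22, NGFR, CDH19 and SOX2 were each the only one within 100 kb. These made up 10.5% of the 38 member peaks, beside 7.14% of all peaks. The median peak of the list had its neighbour 4.11 kb away. At MBP and POU3F1, 11 gaps of at most 1 kb separated peaks, among 6395 such gaps in the whole list.

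Motif matches were counted because ATF1 binds the ATF/CREB site TGACGTCA. No member peak held it, while 2.58% of all peaks did. The windows of the members held 9 such sites in all: 3 in MBP, 2 at SOX2 and 1 each at PMP22, EGR2, NGFR and GFAP. Only 1 of them lay within 1 kb of a peak at its gene. It stood in intron sequence of MBP, 301 bases from the nearest peak, in the gap of 720 bases at chr18:77054491-77055210 and 56 bases from the center of that gap. All 11 gaps of at most 1 kb at MBP and POU3F1 were searched, and this gap was singled out because it held the motif. Of 618 gaps of like width across the list, 1.78% held the motif. The site stands in a tandem repeat of 49 bases. The copy with the site and 1 copy on each side are shown, because only 1 of these holds the full motif. How many copies the repeat has in all was not determined. Capitals mark the same 8 positions in each.
Copy before, chr18:77054812-77054860, minus strand: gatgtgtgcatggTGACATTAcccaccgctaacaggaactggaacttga
Copy with the site, chr18:77054763-77054811, minus strand: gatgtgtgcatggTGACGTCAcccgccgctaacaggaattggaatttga
Copy after, chr18:77054714-77054762, minus strand: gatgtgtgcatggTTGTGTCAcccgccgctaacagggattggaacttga
The copies before and after matched the copy with the site at 44 of 49 bases each (89.8%), and neither held TGACGTCA. No binding data for EA1 were analysed here, and whether the site is bound was not tested. The looser form TGANNTCA was found in 13 member peaks (34.2%), beside 40.8% of all peaks, and TGAGTCA in 8 (21.1%), beside 16.8%.

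For the factors of the lineage itself, ACAAAG was held by 19 of the 38 member peaks (50%) and 48.6% of all peaks, and GGAATG by 52.6% and 43.1%. EGR type matches were in 86.8% of member peaks and 67.5% of all peaks, but at a like density, 3.18 and 2.99 per kb. The E-box CACGTG, which MITF and related factors bind, differed more. It was found in 16 member peaks (42.1%), beside 20.4% of all peaks, at 0.36 and 0.192 matches per kb. Some of these 16 were flank peaks at promoters of other genes, those in the GFAP and L1CAM windows among them. Of the 28 peaks that touched a member gene, 10 (35.7%) held the E-box, at 0.323 matches per kb. The member peaks were also wider than all peaks in the median, as given above, and richer in GC, at a median of 57.5% beside 53.6%. The part of width and GC in the E-box share was not tested. Octamers occurred in 3 member peaks (7.89%, beside 4.92% of all peaks), 1 at EGR2 and 2 at MBP. One of the latter lay in the peak on the classic MBP start sites, 779 bases from the nearest of them, and is shown with its surroundings, the octamer in capitals as it reads on this strand.
MBP octamer, chr18:77016210-77016239, minus strand: tgattccattaATTTGCATacagagtctta

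The other genes of the lineage were taken from lists chosen by function. Of 12 myelin genes, 9 (75%) had a promoter peak, with wide summed promoter peaks at CNP (9.42 kb), an enzyme of the myelin sheath, and NDRG1 (4.85 kb). By canonical start sites inside a peak, the myelin count was 5 of 12, below the share of 53.5% for all coding genes. PMP2, a fatty acid binding protein of peripheral myelin, and CLDN19, a claudin of Schwann cells, were among those without one. Of 16 regulators of Schwann cells, 14 (87.5%) had a promoter peak, led by SOX10 (23.0 kb), ZEB2 (16.5 kb) and TFAP2A (12.01 kb), and LGI4 and FOXD3 had none. SOX10 acts with POU3F1 on EGR2, and ZEB2 is needed for myelination. The regulators include widely used genes such as YY1, and a share above the 63.4% of all coding genes cannot be read for the lineage alone.

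Genes of the repair Schwann cell, the state entered after nerve injury, had a promoter peak in 5 of 12 (41.7%), namely RUNX2, JUN, OLIG1, LIF and BTC. The widest were at RUNX2 (7.06 kb), JUN (4.35 kb), the main regulator of that state, and OLIG1 (3.13 kb). Among 10 melanocyte genes, 7 (70.0%) had one, with PMEL (12.68 kb), OCA2 (10.05 kb) and DCT (4.97 kb) the widest and TYR, TYRP1 and SLC45A2 without. By canonical start sites inside a peak, the melanocyte count was 4 of 10, without PMEL and below the share of 53.5% for all coding genes. In contrast, 1 of 8 genes of central glia (MOBP) and 1 of 8 neuronal genes (TUBB3) had a promoter peak. The median gene had 50.2 bases in peaks per kb of window in the myelin list, 51.7 among the regulators, 28.6 in the repair list, 30.8 in the melanocyte list, 5.8 in central glia and 0.861 in neurons, beside 21.4 for all coding genes. These windows take in peaks of neighbouring genes too. In the repair list, SHH had 179 and ARTN 73.7 without a promoter peak of their own. The part of neighbouring genes in the list medians was not tested. As a check of the line, a promoter peak was found at 5 of 5 markers of CCS and the melanocyte lineage and at 0 of 4 of muscle, 0 of 2 of blood, 0 of 2 of endothelium and 0 of 3 of epithelium. The 5 were SOX10, MITF, PMEL, MLANA and S100B. All but S100B also stand in the lists above, so the check is not independent of them. TYR, TYRP1 and SLC45A2 were not among the 5. The canonical start site lay in a peak at 2 of the 5 markers of CCS and the melanocyte lineage, SOX10 and MITF.

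**Figure D5:**
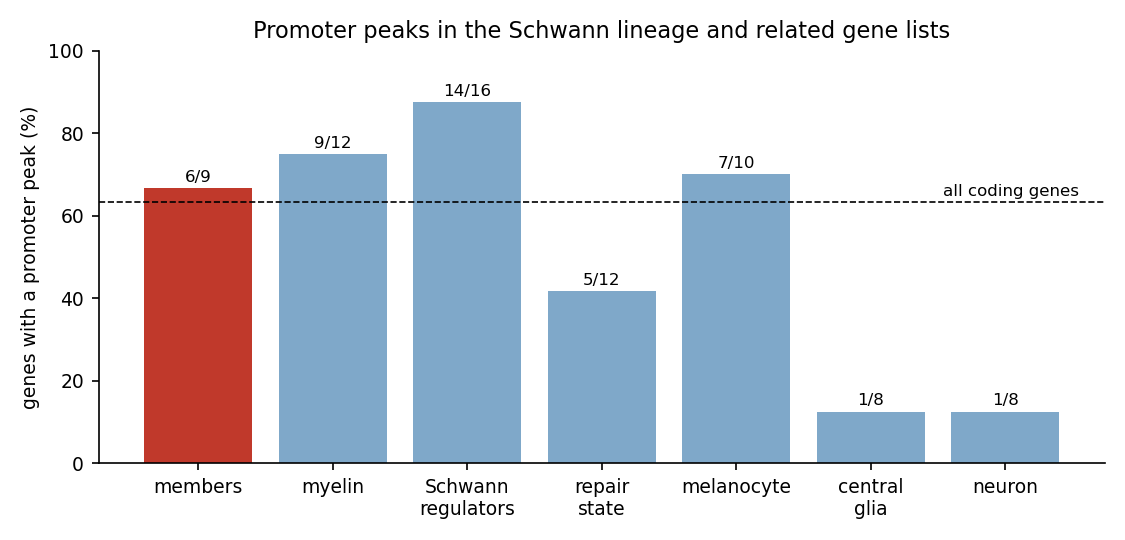
Percent of genes with a promoter peak (y axis, from 0) among the 9 members and in each list, with the number of genes above each bar and 63.4% for all coding genes as a dashed line. Regulators (87.5%), myelin genes (75%) and melanocyte genes (70.0%) lie above the line, and the members (66.7%) near it. The repair list (41.7%) lies below it, and central glia and neurons (1 of 8 each) far below. Myelin and melanocyte genes lie above only for promoter peaks and not for canonical start sites in a peak (5 of 12 and 4 of 10).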

How the data were processed

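H3K27ac ChIP-seq of SU-CCS-1 (3 ChIP and 3 input samples, grouped by their titles) was aligned to hg38 and peaks were called with input as background in the broad mode. The submitters' processing notes name BWA 0.7.10-r789 and MACS2 2.2.6. The authors removed duplicate reads and peaks in denylisted regions and deposited 1 merged peak list in which a peak has a position and a name and nothing else. It holds no signal, p-value or count, and the depth is unknown. Broad calling joins nearby enrichment, so width depends on signal and on the joining rule.

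Peaks were overlapped with GENCODE 44 genes in Python 3.11.15 (pandas 2.3.3, pysam 0.24.0), after the script was tested on simulated data. Percentiles are among 20033 protein-coding genes, or among peaks of the same class (within 3 kb of any start site, or distal). Motifs were searched on both strands of hg38. RefSeq promoter sequences (300 bases, 250 of them before the start) matched 7 of the 9 members. Like width means within 10%. No test was made, since the list has no replicates. Named genes were the members, genes reached by their peaks and, per list, the 3 widest and, where 8 or fewer, those with or without a promoter peak; some values for single genes of the lists are not reported here. Members and lists were chosen with earlier results of these data known. Window, start site, width and joining alternatives were tried.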

Additional observations from a re-analysis of the deposited data

How the results depend on the processing

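Over 64 alternatives for 21 results, 38 values stayed within 1.5 times the reported one and 26 moved further. The number of members with a promoter peak stayed at 6, and the genes were the same, for windows of 1 and 5 kb, for coding or canonical start sites only, and when peak midpoints had to lie in the window. It was 4 with the widest 50% or 25% of peaks, which left out EGR2 and CDH19, and the share of all coding genes was then 49.0% and 26.9%. Peaks at the members went from 38 to 20 and 11 with those widths, as fewer peaks were kept. The median member had 73.9 bases in peaks per kb of gene body alone (all coding genes 14.5) and 34.0 with flanks of 25 kb (22.2), against 22.1 with 50 kb. With 25 and 100 kb flanks, EGR2 had 44.4 and 12.3 (23.7 with 50 kb) and PMP22 34.0 and 13 (22.1). L1CAM went from 37.4 to 0 with 25 kb and to 83.8 with 100 kb. No paired analysis was possible because replicates were merged into 1 list before deposit, and no replicate could be left out for the same reason. Depth limits what an absent peak can show.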
